A study of Homo sapiens with 4 samples.

Results

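LCP1 and 7 further genes for proteins that tie actin filaments into bundles were followed in glioblastoma cells silenced for caspase-2. Each of the 8 genes was taken by name and represented by every probe set whose only gene symbol in the platform annotation was that gene, which gave 1 probe set per gene, 8 of the 32321 on the array. They comprised the plastins LCP1, PLS1 and PLS3, the fascin gene FSCN1, the alpha-actinin genes ACTN1 and ACTN4, and VIL1 and ESPN, the genes of villin and espin. LCP1 was chosen because its value was lower after CASP2 silencing in these same arrays, with a fold above 1.5, and the others because they encode proteins of the same kind. The differences between CASP2 siRNA and control siRNA are therefore given as a description of the members. Intervals of the members combine the spread of the gene between these arrays with the spread typical of all probe sets. For a gene whose arrays lay close together, such as ACTN4, they mostly show the latter. The thresholds of the study, named with LCP1 because they chose it, are no test of it.

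The cells were U87MG, an established human glioblastoma cell line, and 4 Affymetrix arrays measured their total RNA. A pair of arrays came from cells transfected with a control siRNA and the other pair from cells transfected with an siRNA against CASP2, and by their titles the arrays within a group are biological replicates. All 4 samples received an siRNA by lipid transfection, no source used here gives the time from transfection to RNA extraction, and the study's methods list a mutated form of the CASP2 oligo as the control from the supplier that the labels name. The values are log2 values after Robust Multi-Array Average (RMA), which corrects background, equalizes the probe distributions of the arrays and summarizes each probe set, and their median on an array lay between 6.18 and 6.28.

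Actin filaments carry out different tasks according to the protein that holds them together. Plastins, also called fimbrins, are compact monomers with actin-binding domains in tandem and calcium-binding EF-hands, and pack filaments tightly: LCP1 (L-plastin) is the form of leukocytes that many tumour cells also express, PLS3 (T-plastin) that of most solid tissues, and PLS1 (I-plastin) that of intestinal microvilli and hair cell stereocilia. Fascin makes the stiff bundles of filopodia and invasive protrusions, alpha-actinins are antiparallel dimers that space filaments widely in stress fibres and at adhesions, and villin and espin belong to microvilli, with espin also in stereocilia.

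CASP2, the target, gave log2 values of 10.74 and 10.69 on the control arrays and 8.79 and 8.52 on the silenced arrays, so the labels match the silencing. The arrays were checked against marker lists for cell types. Of the markers of mesenchymal glioblastoma lines, 7 of 8 were measured, and they ranged from NES, which encodes the intermediate filament protein nestin, at log2 6.45 and 6.58 on the control arrays, to ANXA1, the annexin A1 gene, at 13.25 and 13.16. The 10 leukocyte markers had mean percentiles between 13.3 and 68.7 on the control arrays, with PTPRC, the CD45 gene that defines leukocytes, at 3.67, 3.73, 3.76 and 3.74 on control replicates 1 and 2 and silenced replicates 1 and 2, below the lower quartile of each array. Their summed linear signal was 635 and 647 on the control arrays and 659 and 695 on the silenced arrays, and CORO1A, an actin-binding coronin of leukocytes, was the brightest of them, at 8.02 in both control samples and at 8.23 and 8.13 after silencing. The 7 epithelial markers measured, of 8, lay between GRHL2, a transcription factor of epithelia, at 4.71 and 4.42 on the control arrays and KRT18, a keratin, at 7.34 and 7.41. Of 8 markers of astrocytes and oligodendrocytes 7 were measured, from the water channel gene AQP4 at 3.80 and 3.71 to the myelin gene MOG at 7.31 and 7.53. MOG was lower on the silenced arrays, at 7.07 and 6.81. The summed linear signal of its list, in which MOG as the brightest gene weighs most, was 425 and 475 on the control arrays and 401 and 425 on the silenced arrays. Of the 7 genes of this list, 5 had a higher mean after silencing and 2 a lower one, with a median log2 difference of 0.055. The part of these markers in the results was not tested.

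The plastin genes are shown by the 250 bases before the outermost RefSeq transcript start of each (GRCh38.p14, read on the strand of the gene). They were picked because LCP1 was the gene chosen from these arrays and PLS1 and PLS3 are its paralogs. Of the 8 genes, 5 have such windows in the table used here, 12 in all, and FSCN1, VIL1 and ESPN have none there. Capitals mark matches to 4 short motifs, each searched on both strands. The GC box was searched as the letters GGGCGG. The TATA box was searched as the letters TATAAA. The CCAAT box was searched as the letters of its own name. The AP-1 site was searched as the letters TGACTCA. In the 3 windows shown, no match to one motif overlapped a match to another.
LCP1, chr13:46182178-46182427, minus strand: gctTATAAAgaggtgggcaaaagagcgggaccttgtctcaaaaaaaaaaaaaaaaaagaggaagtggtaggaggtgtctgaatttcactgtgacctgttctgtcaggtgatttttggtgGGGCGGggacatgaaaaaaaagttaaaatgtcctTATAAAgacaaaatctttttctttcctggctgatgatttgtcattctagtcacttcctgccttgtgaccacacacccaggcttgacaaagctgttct
PLS3, chrX:115560924-115561173, plus strand: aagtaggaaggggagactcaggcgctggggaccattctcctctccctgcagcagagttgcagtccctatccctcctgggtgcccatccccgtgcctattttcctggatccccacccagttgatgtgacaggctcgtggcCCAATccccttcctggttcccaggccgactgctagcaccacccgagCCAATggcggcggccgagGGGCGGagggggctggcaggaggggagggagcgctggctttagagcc
PLS1, chr3:142596143-142596392, plus strand: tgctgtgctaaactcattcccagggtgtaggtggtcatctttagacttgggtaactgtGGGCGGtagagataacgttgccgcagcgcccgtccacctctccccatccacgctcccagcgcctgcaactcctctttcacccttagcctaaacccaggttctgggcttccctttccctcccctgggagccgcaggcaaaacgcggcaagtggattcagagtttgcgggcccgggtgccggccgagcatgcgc

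The LCP1 window was poor in G and C (41.2%, at or above 15.6% of 35114 such windows of all genes) and held 2 CpG dinucleotides. It held 2 matches to the TATA box, the nearer of them 97 to 92 bases before the start, and 1 to the GC box. A TATA box match stood in 10.7% of all windows and a GC box match in 42.6%. The PLS3 window had 65.2% G and C, 10 CpG dinucleotides, 1 GC box match and 2 CCAAT box matches, a motif found in 32.0% of windows, and no TATA box match. The PLS1 window had 60.8% G and C with 15 CpG dinucleotides and 1 GC box match. The windows of the alpha-actinin genes at their outermost starts were richer still, with 72.0% and 25 CpG dinucleotides for ACTN1 and 74.4% and 40 CpG dinucleotides for ACTN4. No AP-1 match lay in any of these windows, against 4.20% of all windows with one. Further starts are annotated for PLS1 (3 windows in all), PLS3 (2), ACTN1 (4) and ACTN4 (2), and LCP1 has 1. The inner starts of the other plastins were as poor in G and C as that of LCP1 or poorer, at 38.4% and 37.2% with 0 CpG dinucleotides each for PLS1 and 34.0% with 2 for PLS3, so the contrast in composition holds for the outermost starts only. Which starts U87MG cells use was not measured here.

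LCP1 (chromosome 13, 46125923 to 46182177 in GRCh38.p14) had log2 values of 9.42 and 9.33 with the control siRNA and of 8.89 and 8.63 with the CASP2 siRNA. Both silenced arrays lay below both control arrays, and the nearest arrays of the groups were 0.44 apart, while the control arrays differed from each other by 0.088 and the silenced arrays by 0.27. The mean went from 9.37 ± 0.062 to 8.76 ± 0.19 (SD, n = 2 arrays each), a log2 difference of -0.61 with a standard error of 0.13, or 1.53-fold lower. The limma 95% interval of this difference ran from -0.96 to -0.27, and leaving out each array in turn gave differences from -0.75 to -0.48. LCP1 stood just inside the fold of 1.5 that the study required, and outside it with quantile normalization (1.498-fold), without control siRNA replicate 1 (1.48-fold) and without CASP2 siRNA replicate 2 (1.40-fold). It was 1 of the 117 probe sets (0.362% of 32321) that were lower by more than 1.5-fold at an unadjusted limma p under 0.05. With adjustment over all probe sets, 0 (0%) passed at 0.05 by limma and 0 by the methods' t-test, so that LCP1 did not, and 979 had an unadjusted limma p under 0.05. In bulk RNA, fewer cells expressing LCP1 and less LCP1 mRNA in each cell cannot be told apart.

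The paralogs of LCP1 gave other patterns. PLS3 (chromosome X, 115561174 to 115650861), the plastin of solid tissues, had log2 values of 10.67 and 10.68 on the control arrays and of 10.71 and 10.59 after silencing. The control values fell between the silenced ones, so the groups overlapped. The difference was -0.024 (SE 0.098, interval -0.28 to 0.24).

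PLS1 (chromosome 3, 142596393 to 142713664), the plastin of microvilli, had log2 values of 6.85 and 6.98 with the control siRNA and of 7.11 and 6.94 with the CASP2 siRNA. The silenced replicate 2 lay between the control arrays, and the groups overlapped. The difference was 0.11 (SE 0.11, interval -0.19 to 0.41), opposite in sign to that of LCP1.

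FSCN1 (chromosome 7, 5592816 to 5606655), the fascin gene, had log2 values of 10.92 and 10.88 on the control arrays and of 10.98 on each silenced array. Its silenced values exceeded both control values by a gap of 0.059, while its control arrays differed by 0.040 and its silenced arrays by 0.00085. The gap was smaller than the standard error of 0.090, which also draws on the spread of all probe sets. The difference was 0.079 with an interval of -0.16 to 0.32. Of all probe sets, 14.5% were apart in this direction.

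The alpha-actinins had the brightest probe sets of the 8. ACTN1 (chromosome 14, 68874128 to 68979302) had log2 values of 12.54 and 12.55 with the control siRNA and of 12.47 and 12.56 with the CASP2 siRNA, groups that overlapped, with a difference of -0.031 (interval -0.28 to 0.22). ACTN4 (chromosome 19, 38647649 to 38731589) had 13.05 and 13.06 on the control arrays and 13.00 in both silenced samples. Its groups did not overlap, and were 0.050 apart, a difference of -0.052 (interval -0.29 to 0.18) or 1.04-fold. ACTN4 and LCP1 were the 2 members whose groups were apart in the lower direction, as were those of 15.1% of all probe sets. Since LCP1 was picked from this contrast, nothing is read from that count.

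VIL1 (chromosome 2, 218419123 to 218453295), the villin gene, gave the dimmest signal, with log2 values of 5.31 and 5.28 on the control arrays and of 5.11 and 5.47 on the silenced arrays. The silenced arrays lay on either side of the control arrays and differed from each other by 0.36, the widest such gap among the 8, and the difference was -0.0033 (interval -0.40 to 0.40). ESPN (chromosome 1, 6424776 to 6461370), the espin gene, had 7.71 and 7.76 on the control arrays and 7.72 and 7.80 on the silenced arrays, which overlapped, with a difference of 0.025 (interval -0.23 to 0.28). Espin has a pseudogene of like sequence, ESPNP, whose own probe set read 6.59 and 6.67 with the control siRNA and 6.61 and 6.79 with the CASP2 siRNA, and how far the probe sets share signal was not tested.

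**Figure D1:**
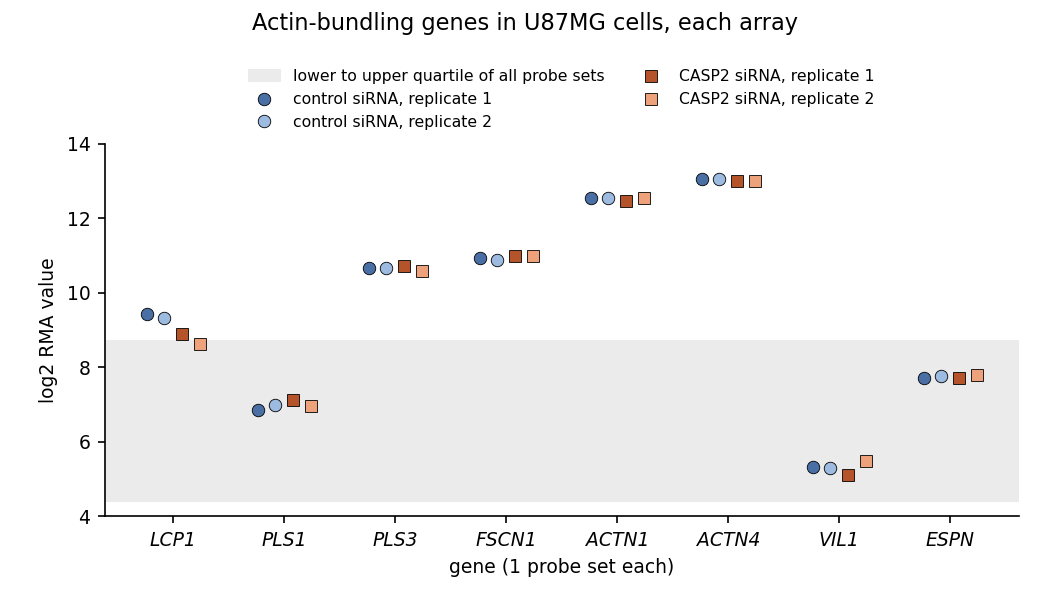
Log2 RMA value (y axis) of the probe set of each actin-bundling gene (x axis) on each of the 4 arrays; circles mark control siRNA and squares CASP2 siRNA, and the grey band spans the lower to the upper quartile of all probe sets. LCP1 lies between 8.63 and 9.42 with its silenced arrays below its control arrays. The silenced arrays of VIL1 lie 0.36 apart, on either side of its control arrays.

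Ranked among all probe sets of an array, from 0 to 100, the ACTN4 signal stood at percentile 99.6 on both control arrays and that of ACTN1 at 98.9. FSCN1 stood at 93.4 and 93.3, PLS3 at 92.0 and 92.1, and LCP1 at 82.2 and 81.3. Below them came ESPN at 65.7 and 66.1, PLS1 at 57.4 and 58.6, and VIL1 at 37.8 and 37.5. The ranges over the 4 arrays of neighbours in this order did not overlap, the closest being FSCN1 and PLS3, whose control means were 0.23 apart. The order is one of array signal: probes differ in how strongly they bind, so it is not an order of mRNA amounts. With the CASP2 siRNA LCP1 stood at percentiles 76.9 and 75.4, and its place between PLS3 and ESPN was kept on every array.

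**Figure D2:**
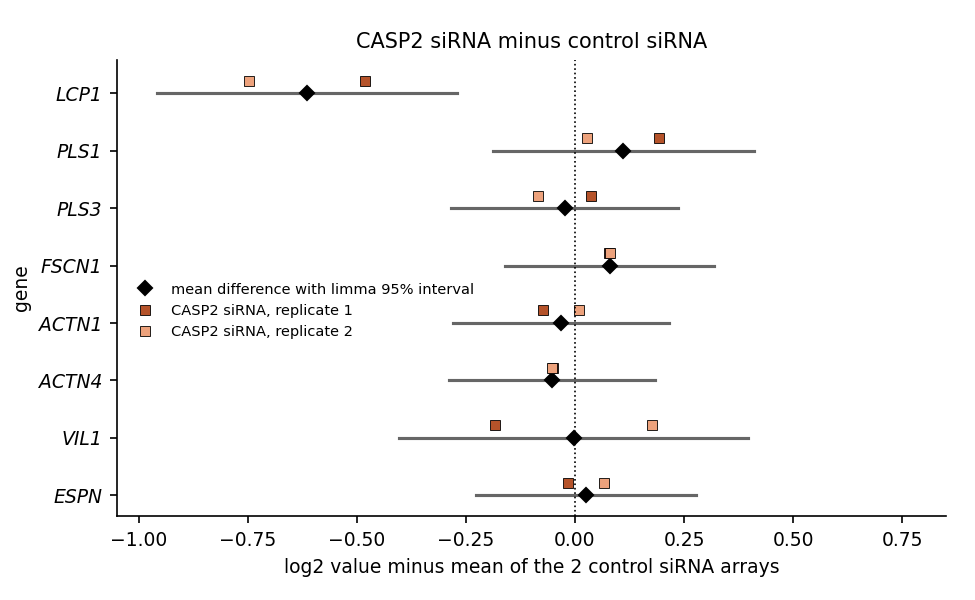
Log2 value minus the mean of the control arrays (x axis) for each gene (y axis); squares are the 2 silenced arrays, diamonds their mean, and bars the limma 95% interval of the difference. The interval of LCP1 runs from -0.96 to -0.27, and those of the other 7 genes hold 0, with bounds between -0.40 and 0.41.

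Over the 7 genes other than LCP1 the differences ran from -0.052 to 0.11 with a median of -0.0033, 4 of them below 0, and the largest corresponded to 1.08-fold. Over all 32321 probe sets the median difference was 0.0022 and 49.3% lay below 0. The 95% interval held 0 for all 7. Over all probe sets it left out 0 for only 979 (3.03%), those with an unadjusted limma p under 0.05. Nothing particular to the 7 is read from that count.

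LCP1 was also set against each other gene on the same array, which removes any shift that all genes of an array share. Since LCP1 was chosen for its lower value, a lower within-array value after silencing was given by that choice, and these values only describe it array by array. The log2 value of LCP1 minus that of PLS3 was -1.25 and -1.35 on the control arrays and -1.82 and -1.96 on the silenced arrays. Against FSCN1 it was -1.51 and -1.55, then -2.09 and -2.36. Against ACTN4 it was -3.64 and -3.73, then -4.11 and -4.38. On each silenced array LCP1 was lower relative to PLS3, FSCN1 and ACTN4 than on either control array, and this also held against ACTN1, PLS1, VIL1 and ESPN. Across the 7 genes the change in this within-array value ran from -0.73 against PLS1 to -0.56 against ACTN4. LCP1 enters all 7, so these values are not independent of each other.

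**Figure D3:**
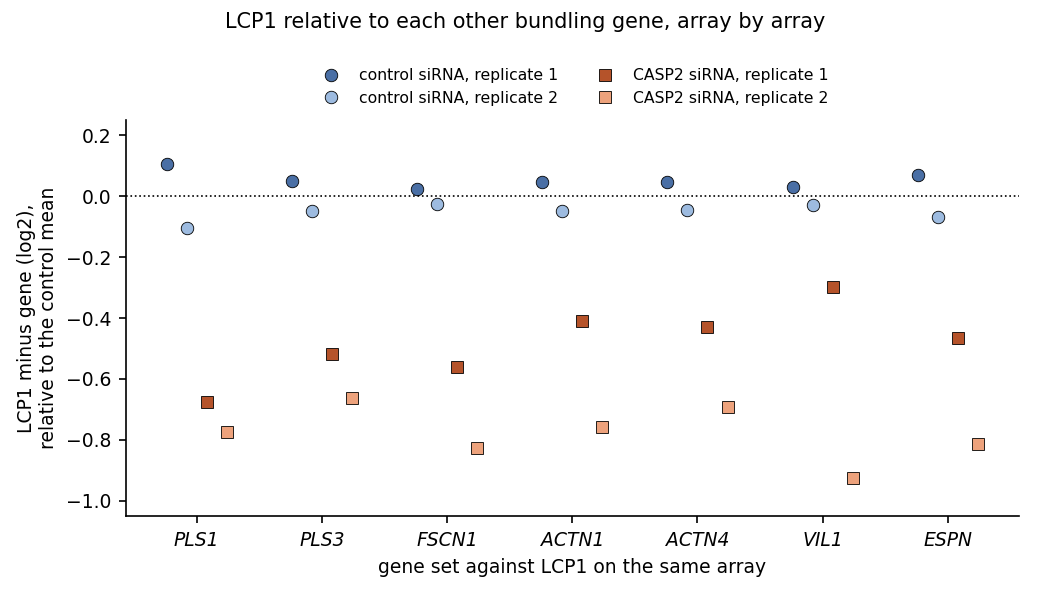
Log2 value of LCP1 minus that of another bundling gene on the same array (y axis), relative to the mean of the control arrays, for each of the 7 other genes (x axis); circles are control siRNA and squares CASP2 siRNA. Both silenced arrays lie below both control arrays for each gene, with mean changes from -0.73 (PLS1) to -0.56 (ACTN4).

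Genes of the rest of the actin machinery were read from 8 lists, each gene by its brightest probe set with 1 symbol, which measured 133 of 145 entries. By limma none of the 133 passed an adjusted p of 0.05, none was past 1.5-fold at an unadjusted p under 0.05 (0.362% of all probe sets were in the lower direction and 0.331% in the higher), and 0 had an unadjusted limma p under 0.05, against 979 (3.03%) of all probe sets. All probe sets include those with no gene symbol, which the lists cannot hold. Among the 19158 with 1 symbol, 27 were lower and 20 higher at the same fold and unadjusted limma p. How many of those 19158 had an unadjusted limma p under 0.05 at any fold was not counted. The differences of the 133 ran from -0.26 to 0.26 with a median of -0.0031, 64 above 0 and 69 below. The groups were apart in the lower direction for 26 of the 133 and in the higher for 25 of the 133. Over all probe sets, 15.1% were apart in the lower direction and 14.5% in the higher. The count is a description of the lists and names nothing particular to them.

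Of the 28 further bundlers and crosslinkers measured, 14 lay above 0 and 14 below, with a median difference of 0.00013. The smallest p-values among them, none of which passed, were those of SYNPO2 and GAS2. SYNPO2, a synaptopodin of muscle Z-discs, differed by 0.23 (interval -0.081 to 0.54). GAS2, a growth arrest protein that binds actin, differed by -0.20 (interval -0.46 to 0.062). Its signals lay between 3.65 and 3.93, below the lower quartile of every array. This list held the close relatives of the members: ACTN2 and ACTN3, the alpha-actinins of muscle, differed by -0.022 and -0.054, and FSCN2, the fascin of the retina, by 0.22, over control values of 6.54 and 6.23 that themselves lay apart. The relatives of villin and espin AVIL, VILL and ESPNL differed by -0.013, 0.095 and -0.026. The largest of these, the 0.22 of FSCN2, had an interval of -0.36 to 0.80. Its silenced values of 6.35 and 6.85 overlapped its control values, so no direction is read from it.

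The genes of the cytoplasmic actins were bright. ACTB, the beta-actin gene, had log2 values of 12.97 and 12.95 with the control siRNA and of 12.98 and 12.93 with the CASP2 siRNA, and ACTG1, the gamma-actin gene, had 13.39 and 13.37, then 13.40 and 13.43. Their differences were -0.00077 and 0.038. Of the 6 actin isoforms 2 lay above 0 and 4 below (median -0.019), with ACTA2, the smooth muscle actin, at -0.15 and ACTC1, the cardiac actin, at 0.089.

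Among the proteins that start and lengthen filaments, 14 of 17 genes of the Arp2/3 complex and its activators were measured, 5 above 0 and 9 below (median -0.027). WASF2, a WAVE subunit that activates Arp2/3, differed by -0.25 (interval -0.58 to 0.080), and ACTR3B, an isoform of the Arp3 subunit, by -0.24 (interval -0.54 to 0.059). The 16 formins and Ena/VASP genes split into 8 above and 8 below 0 (median -0.017), with the formin DAAM1 at 0.26 (interval -0.015 to 0.53) and the formin INF2 at -0.26 (interval -0.55 to 0.029). Those were the extremes among these 16.

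Of 24 severing, capping and monomer-binding genes measured, of 27, 13 lay above 0 and 11 below (median 0.022). SCIN, the severing protein scinderin, differed by 0.25 (interval -0.0045 to 0.51) at signals between 3.92 and 4.24, below the lower quartile of every array, and TWF2, a twinfilin, by -0.14 (interval -0.37 to 0.10). Of 17 tropomyosin, calponin and nonmuscle myosin II genes, 8 lay above 0 and 9 below (median -0.0011), with the calponin CNN1 at 0.16 and MYH9, the heavy chain of nonmuscle myosin IIA, at -0.12. The 16 adhesion genes had 9 above 0 and 7 below (median 0.012), with the tensin TNS1 at 0.16 and PARVA, alpha-parvin, at 0.14. Of 12 microvillus and brush border genes, the setting in which VIL1, ESPN and PLS1 are best known, 5 lay above 0 and 7 below (median -0.010), with the scaffold NHERF1 at 0.17 and the myosin MYO1A at -0.21.

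**Figure D4:**
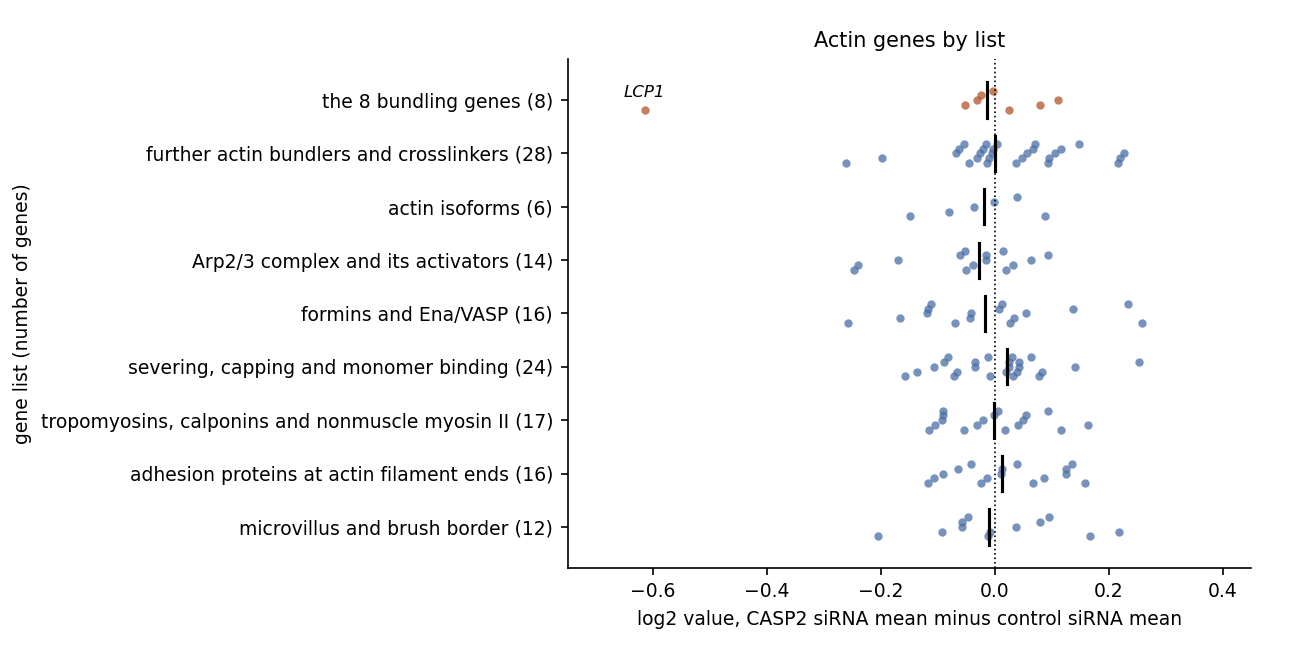
Log2 difference between the means of the silenced and the control arrays (x axis) for the 8 bundling genes and for 8 lists of actin genes (y axis, number of genes measured in brackets); each point is 1 gene and vertical bars are medians. The 133 list entries lie between -0.26 and 0.26, and LCP1, which was chosen for its difference, is labelled at -0.61.

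The probe sets whose profiles were most like that of LCP1 were found by the root mean square distance over the 4 arrays, each profile centred on its own mean. The 5 nearest with 1 gene symbol were MARK2, a microtubule affinity-regulating kinase (distance 0.015), SEMA3A, a semaphorin guidance factor (0.025), PTPN22, a tyrosine phosphatase of lymphocytes (0.029), MIEF1, a mitochondrial elongation factor (0.033), and ST20 (0.047). MARK2 had log2 values of 9.29 and 9.21 on the control arrays and of 8.80 and 8.52 on the silenced arrays, so that, as for LCP1, silenced replicate 2 lay lowest. Its fold of 1.504 lay just inside the fold of 1.5, and those of SEMA3A (1.498) and PTPN22 (1.497) lay just outside. No other member was near: the distance to LCP1 was 0.30 for ACTN4, the closest, and 5574 probe sets with 1 symbol lay closer than that. With 4 arrays this likeness is mostly the sharing of one difference between groups and of one difference between the silenced arrays.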

How the data were processed

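Affymetrix Human Gene ST arrays of 4 U87MG samples, 2 per group as named in the sample titles, were normalized by the authors with RMA, its version not given in the sources used here. What they deposited is 1 log2 value for each of 32321 probe sets and each array. RMA equalizes probe distributions, so a shift of all genes is largely removed. Gene names came from the platform annotation (19158 probe sets with 1 symbol, 1388 with several, 11775 with none), updated by gene ID through RefSeq (GRCh38.p14) for 19128.

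All probe sets were fitted with limma 3.58.1 in R 4.3.3 (lmFit, eBayes, two-sided, prior degrees of freedom 2.47 beside 2 residual), adjusted over all probe sets by Benjamini-Hochberg. The fit was tested on simulated data. Precision is limited by the number of arrays: the smallest p of an exact permutation test of 2 against 2 is 0.333. The members and lists were chosen with earlier results of these data known. Named are the members, ACTB, ACTG1, CASP2, 2 genes of each actin list (smallest p), the brightest and dimmest of each marker list and the 5 probe sets most like LCP1; ESPNP and the relatives of members were added after their values were seen. Alternatives were the methods' t-test (pooled SD raised to its median), trend and robust eBayes, quantile normalization, median centring, a filter on dim probe sets, a replicate block, arrays left out in turn and other choices of probe set. Replicate numbers were checked as pairs: the deviations of same-numbered arrays correlated across probe sets with r = 0.020, so they were not treated as paired. All columns were mapped, and no protein sequence was used here.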

Additional observations from a re-analysis of the deposited data

How the results depend on the processing

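The log2 difference of LCP1 was below 0 under every alternative run, and ranged from -0.75 to -0.48 with each array left out in turn. Its sign was mostly fixed in advance. LCP1 was chosen as lower and its groups were apart, so leaving out any array keeps the sign, and a change of test, a block or a filter leaves the difference as it was. LCP1 was no longer past 1.5-fold with quantile normalization (1.498-fold), without control siRNA replicate 1 (1.48-fold) and without CASP2 siRNA replicate 2 (1.40-fold). Of the 79 values of the members under alternatives, 77 moved by less than the spread between replicates (pooled SD). For most of them this was fixed in advance. A change of test, a block or a filter leaves the difference as it was, and leaving out 1 array of a pair cannot move it beyond that spread. Only quantile normalization and median centring could do so. Under these, the values that moved further were those of ACTN4, with its very narrow spread, at -0.056 with quantile normalization and -0.072 with arrays centred on their medians. Without dim probe sets, VIL1 was left out. The signs of PLS3, ACTN1, VIL1 and ESPN, whose differences were small, turned when single arrays were left out.

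No probe set passed the adjusted test under any alternative run, with limma or with the methods' t-test. At the fold of 1.5 and an unadjusted limma p under 0.05, the counts were 117 lower and 107 higher. By the methods' t-test they were 37 and 35, and without dim probe sets 33 and 22. Among the 19158 probe sets with 1 gene symbol the counts were 27 and 20, a smaller share than over all 32321. With each array left out, they ranged from 157 to 592 lower and from 118 to 414 higher: 592 and 398 without CASP2 siRNA replicate 1, 224 and 414 without CASP2 siRNA replicate 2, and 196 and 183 without control siRNA replicate 1. The lone array was then assumed to vary like the other group. Over all probe sets, the difference between the silenced arrays had an SD of 0.35 and that between the control arrays of 0.20. The cause of the changed counts was not tested. With the replicate number as a block, the counts were 160 and 142 and the difference of LCP1 was -0.61. Which of the probe sets stayed past these thresholds was not counted, and 0 passed the adjusted test. The control percentile of LCP1 was 78.2 among probe sets with 1 gene symbol, against 81.7 among all. Centred on array medians, the arrays gave the same 5 probe sets nearest to LCP1 (5 of 5 shared).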
